A study of Mus musculus with 20 samples.

Results

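The genes described here are 10 targets of the hypoxia-inducible factors (HIFs): Vegfa, Adm, Egln1, Egln3, Bnip3, Slc16a3, Ero1l, P4ha1, Ndrg1 and Ankrd37. They were chosen by name as HIF target genes, with earlier results of these data known, and make up 10 of the 28632 genes in the deposited count table. Counts came from RNA sequencing of isolated mouse pancreatic islets in 4 genotype groups, with paired-end reads of 151 bases from total RNA after 24 hours of culture. The mice were 12 weeks old and on the C57BL/6N background. Those of β-Mfn1KO (n = 4, genotype Mfn1-/- in the labels), β-Mfn2KO (n = 5, Mfn2-/-) and β-Mfn1/2DKO (n = 5, Mfn1-/- and Mfn2-/-) carried floxed alleles of Mfn1, of Mfn2 or of both together with Ins1-Cre. Ins1-Cre sits in an insulin gene and limits the deletion to β cells, so the other cells of an islet keep both genes. The labels call the Ctrl mice (n = 6) wild type, while the study's methods pool animals carrying only Ins1-Cre with animals carrying only floxed alleles, and which Ctrl library is of which kind is not stated. Ctrl held 3 females and 3 males, β-Mfn1KO 3 and 1, β-Mfn2KO 2 and 3, and β-Mfn1/2DKO 2 and 3. Each library is a separate sample in the labels. Mfn1 and Mfn2 encode mitofusins, which fuse the outer membranes of mitochondria. The comparisons ask whether transcripts under HIF control change where mitochondrial function is impaired, since islets with impaired respiration should use less oxygen.

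HIFs are transcription factors made of an oxygen-regulated α subunit and a stable β subunit, Arnt. When oxygen is present, prolyl hydroxylases mark the α subunit for binding by the von Hippel-Lindau protein and for degradation, and when oxygen is scarce the factor builds up and binds short DNA elements near its target genes. In islets, VEGF-A from endocrine cells maintains the dense capillary bed, and strong HIF activity in β cells is known to impair insulin secretion.

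Library depth differed by genotype. Total counts were 14867765, 20329064, 13416168, 12400687, 15157264 and 12967823 in Ctrl replicates 1 to 6 and 15745680, 15856560, 16685381 and 15837350 in β-Mfn1KO. They were 15471421, 18919122, 15110046, 55962873 and 59533407 in β-Mfn2KO and 122947313, 83983489, 106430216, 97488270 and 65533388 in β-Mfn1/2DKO. The shallowest β-Mfn1/2DKO library was deeper than the deepest of the other groups, so depth and genotype cannot be told apart from the Ctrl and β-Mfn1/2DKO libraries alone, and a depth term rests on the 2 deep β-Mfn2KO libraries. Values below are counts normalized by TMM, the scaling method of edgeR, at a common library size, unless another scale is named.

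Markers of islet cell types were read in every library, and no marker listed was at 0 in all libraries. The 11 β-cell markers took up 17.8, 14.1, 15.8, 19.3, 21.9 and 16.8% of counts in Ctrl and 18.0, 18.6, 15.9 and 19.0% in β-Mfn1KO. Their share was 18.1, 16.1, 15.4, 17.9 and 15.1% in β-Mfn2KO and 9.64, 9.27, 8.89, 8.44 and 6.58% in β-Mfn1/2DKO. In edgeR's test all 11 fell in β-Mfn1/2DKO against Ctrl, or 9 of 11 with total counts as the scaling, with a median log2 fold change of −1.02, led by Ins1 (−2.60), Slc2a2 (−1.60) and Ucn3 (−1.36). Ins2 was their most abundant gene per kilobase of transcript and fell by 1.09 on the log2 scale. Ins1, the gene that carries the Cre insertion, also fell in β-Mfn2KO (−0.94) and β-Mfn1KO (−0.82) against Ctrl, where it was the 1 marker of the 11 that passed. In bulk islet RNA, fewer cells of a type and less RNA of that type per cell cannot be told apart.

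The 11 endothelial markers, of which Plvap was the most abundant per kilobase, summed to 7777, 8704, 7877, 7363, 11048 and 9442 normalized counts in Ctrl. They summed to 7791, 7996, 7169.9 and 7831 in β-Mfn1KO, to 10409.7, 7534, 9707, 9115 and 9007 in β-Mfn2KO, and to 12797, 12105, 10727, 16484 and 15544.5 in β-Mfn1/2DKO. All 11 rose in β-Mfn1/2DKO against Ctrl, or 10 of 11 with DESeq2 size factors as the scaling, by 0.29 to 0.88 on the log2 scale, with the largest changes in Tie1 (0.88), Plvap (0.86) and Cdh5 (0.77). β-Mfn1/2DKO replicates 4 and 5 held the highest sums.

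The 15 acinar markers, with Ctrb1 the most abundant per kilobase, took up 0.0297 to 0.176% of counts in Ctrl and 0.0102 to 0.0582% in β-Mfn1KO. In β-Mfn2KO they took up 0.0515, 0.171, 0.0481, 0.686 and 0.0668%. In β-Mfn1/2DKO they took up 0.0502, 0.0805 and 0.0492% in replicates 1 to 3, but 1.80% in replicate 4 and 4.33% in replicate 5. Of the 15, 13 rose in β-Mfn1/2DKO against Ctrl. Among those with a mean of 50 normalized counts or more, the largest log2 fold changes were in Cpa1 (4.04), Pnlip (3.95) and Cel (3.82). With replicate number as a block most of these calls were lost, as given below. Among 7 duct markers, of which Spp1 was the most abundant per kilobase, Krt19 (2.94), Muc1 (1.5) and Krt7 (0.41) rose.

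The summed markers of 10 macrophage and other leukocyte genes lay between 4928 and 10400.2 normalized counts in 18 libraries and stood at 28675 in Ctrl replicate 6 and at 38865 in β-Mfn2KO replicate 5. Lyz2 was the most abundant of them per kilobase. The same 2 libraries held the highest sums of 8 stromal markers, 12739 and 13812 against 1001 to 4717 elsewhere, with Col1a1 the most abundant per kilobase. In β-Mfn1/2DKO against Ctrl 1 of the 10 leukocyte markers fell, C1qa (−0.54), which did not pass with total counts, and their log2 fold changes ran from −1.32 to 0.50. Of the 8 stromal markers 1 rose, Pdgfrb (0.67), and their log2 fold changes ran from −0.57 to 1.43. Gcg, the most abundant per kilobase of 7 α-cell markers, did not pass the test (0.42). The 4 δ- and PP-cell markers, Ppy (−0.16) the most abundant per kilobase, had a median log2 fold change of −0.13.

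**Figure D1:**
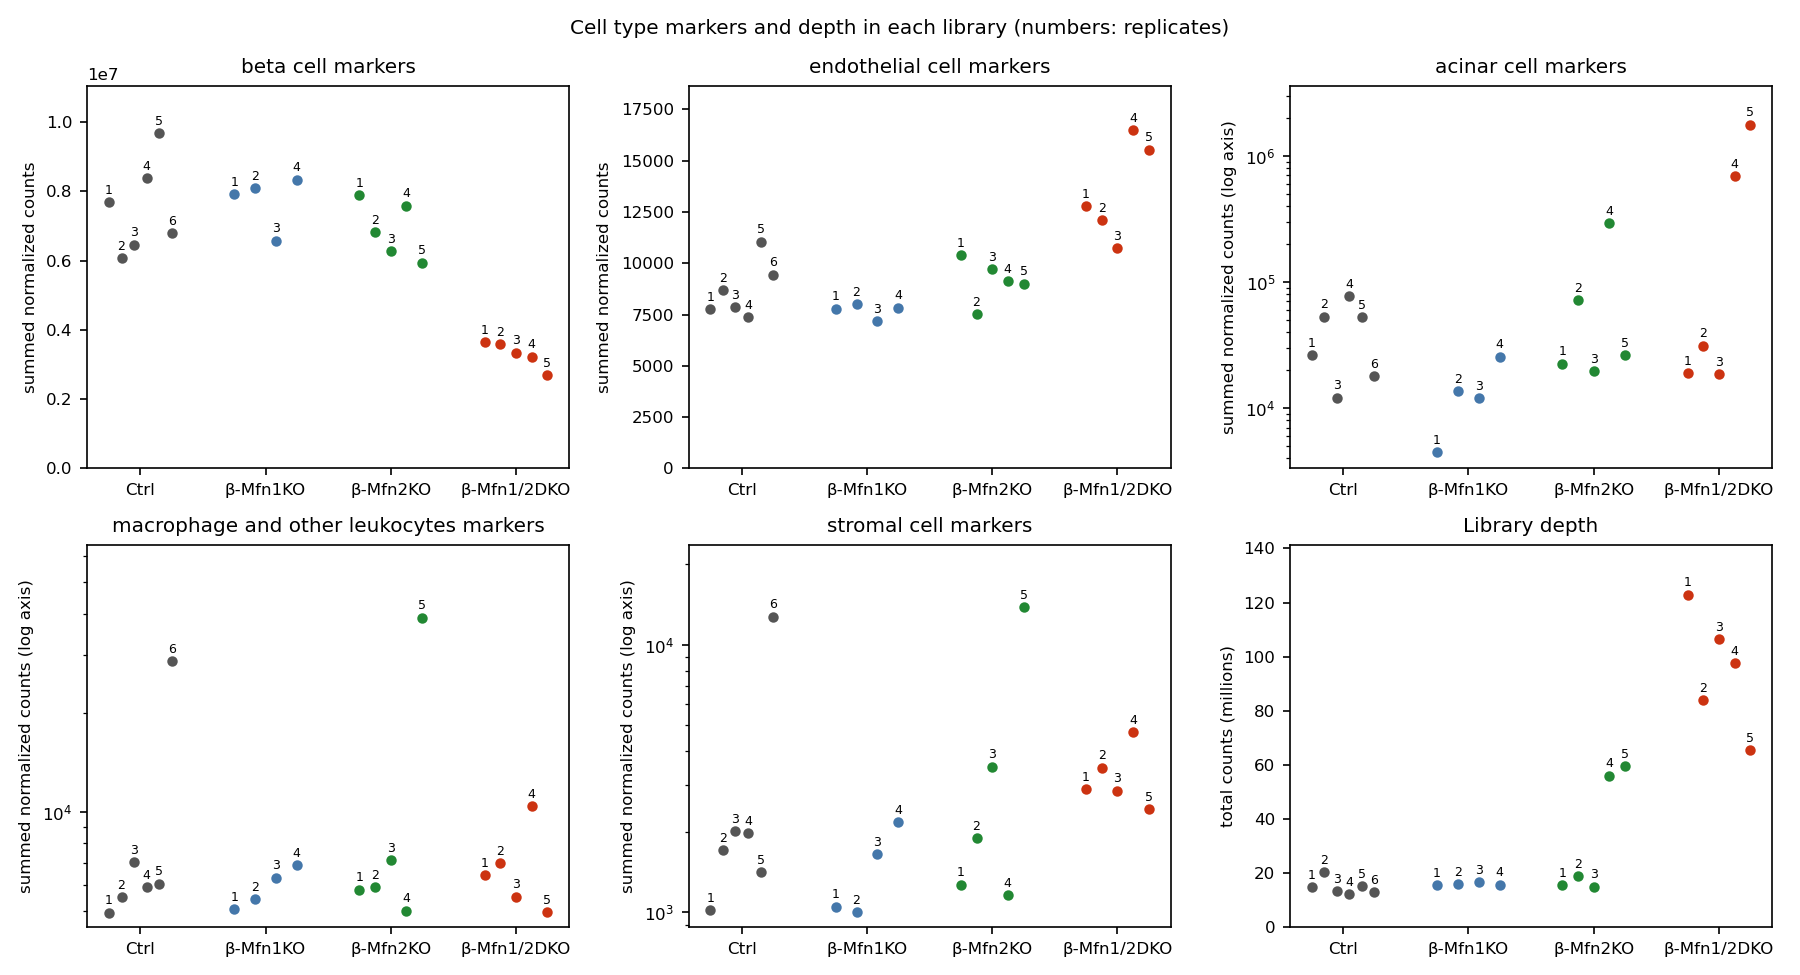
Summed normalized counts of 5 cell type marker lists and total counts per library (vertical axes, 3 of them logarithmic) for each library (points with replicate numbers) in the 4 groups. β-cell markers are lowest in the 5 β-Mfn1/2DKO libraries, acinar markers are highest in β-Mfn1/2DKO replicates 4 and 5, and leukocyte and stromal markers in Ctrl replicate 6 and β-Mfn2KO replicate 5.

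The targeted genes followed the labels. Normalized counts of Mfn1 ran from 1518 to 1807 in Ctrl, from 621.4 to 770.4 in β-Mfn1KO, from 1683 to 1807 in β-Mfn2KO and from 686.9 to 1062 in β-Mfn1/2DKO. Those of Mfn2 ran from 3089 to 4373 in Ctrl, from 3869 to 4607 in β-Mfn1KO, from 1474 to 1688 in β-Mfn2KO and from 2022 to 2131 in β-Mfn1/2DKO. In each group that lost a gene its libraries lay below every Ctrl library. The counts span all exons, so a transcript lacking the deleted part still adds to them, as do the cells in which Ins1-Cre is not active.

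The 10 HIF target genes differed 354.5-fold in mean level over the 20 libraries, on a scale of normalized counts per kilobase of exon. Vegfa stood highest at 5741, above 99.3% of the 28579 genes with an annotated length. Ndrg1 followed at 1444, Bnip3 at 1432, Ero1l at 1076, Egln1 at 741.4 and P4ha1 at 618.9. Ankrd37 stood at 154.9, Adm at 22.7, Slc16a3 at 16.4 and Egln3 at 16.2. In Ctrl, neighbours in this order overlapped within their spread at several places. Among the higher genes these were Bnip3 (1525 ± 342.5, SD, n = 6) and Ndrg1 (1383 ± 83.4), and Bnip3 and Ero1l (1011 ± 234.6). Egln1 (713.9 ± 43.4) and P4ha1 (676.2 ± 124.4) overlapped too, as did the lowest genes Slc16a3 (18.7 ± 9.66), Egln3 (14.9 ± 11.4) and Adm (9.15 ± 7.97). The order in β-Mfn1KO was that of Ctrl. In β-Mfn2KO Adm (17.1 ± 16.5, SD, n = 5) changed places with Egln3 (11.7 ± 4.35), within their spread. In β-Mfn1/2DKO Ndrg1 (1731 ± 301.0, SD, n = 5) stood above Bnip3 (1301 ± 125.8), while Bnip3 and Ero1l (1272 ± 136.6) were within their spread. The lowest genes there stood apart as Adm (58.6 ± 15.9), Egln3 (27.1 ± 5.30) and Slc16a3 (12.6 ± 2.29).

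Losing both mitofusins in β cells was compared first. With 28632 genes tested by edgeR (quasi-likelihood, Benjamini-Hochberg adjusted p under 0.05), 5 of the 10 changed in β-Mfn1/2DKO against Ctrl, as did 16.5% of all genes and 30.6% of the 14345 genes whose mean reached 30 normalized counts, a level that all 10 reach, Adm through β-Mfn1/2DKO (mean 94.9, against 14.8 in Ctrl, 8.71 in β-Mfn1KO and 27.7 in β-Mfn2KO). Adm, Egln1 and Ndrg1 rose (9.59% of all genes rose), and P4ha1 and Ankrd37 fell (6.86% fell). With total counts 5 of the 10 rose and 1 fell, beside 5393 and 949 of all genes. With DESeq2 size factors 3 of the 10 rose and 2 fell, beside 2291 and 2378 of all genes. With a fold change over 1.5 required as well, the count was 2 of 10, Adm and Ankrd37, against 5.21% of all genes. The groups did not overlap in 3 of the 10, Adm, Egln1 and Ankrd37, against 18.6% of the 14345 genes. DESeq2 called 6 of 10, beside 5798 of all 28632 genes, and 8 of 10 had an unadjusted p under 0.05 by edgeR, beside 7974 of all genes. The 10 had a median log2 fold change of 0.22, beside 0.06 over all genes tested, with 6 above and 4 below 0. Scaling by total counts in place of TMM moved the median of the 15267 genes that pass a filter on low counts from 0.04 to 0.17, and each of the 10 had the same direction under both.

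**Figure D2:**
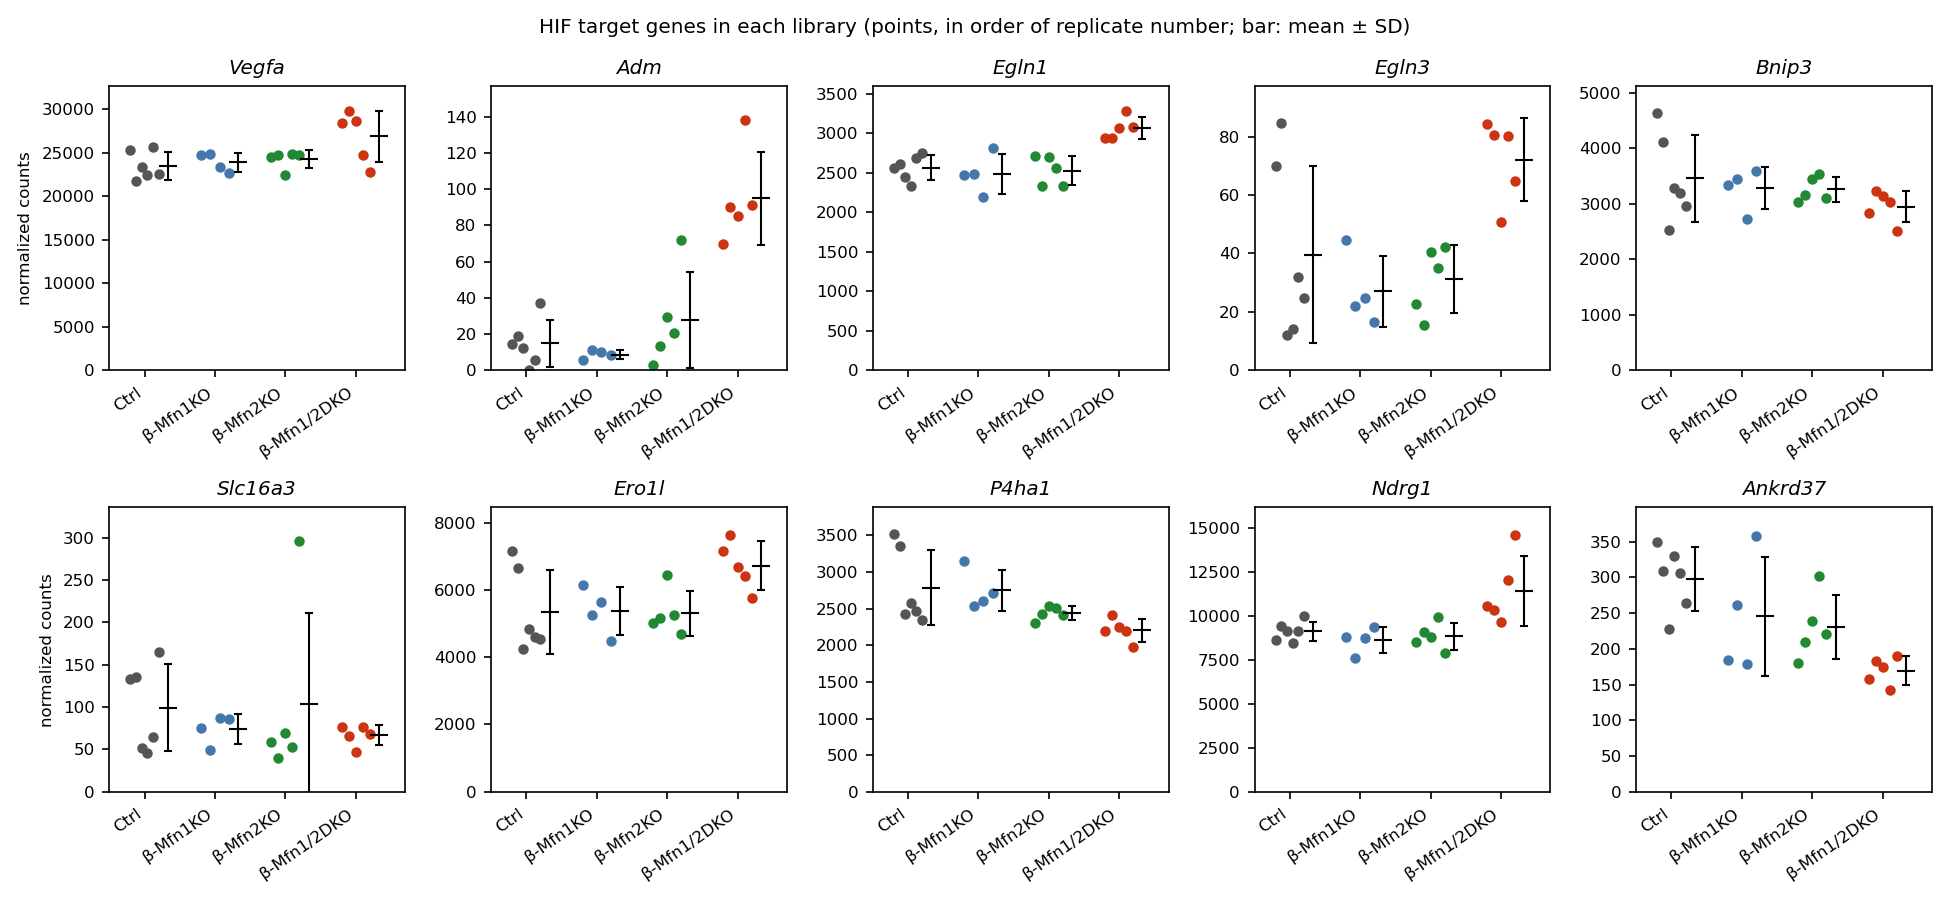
Normalized counts (vertical axes, from 0) of the 10 HIF target genes in each library (points, in order of replicate number), with the mean and SD of each group beside them. Adm and Egln1 lie higher and Ankrd37 lower in all 5 β-Mfn1/2DKO libraries than in all 6 Ctrl libraries, and Ctrl replicates 1 and 2 are the highest Ctrl libraries for Egln3, Bnip3, Ero1l and P4ha1.

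**Figure D3:**
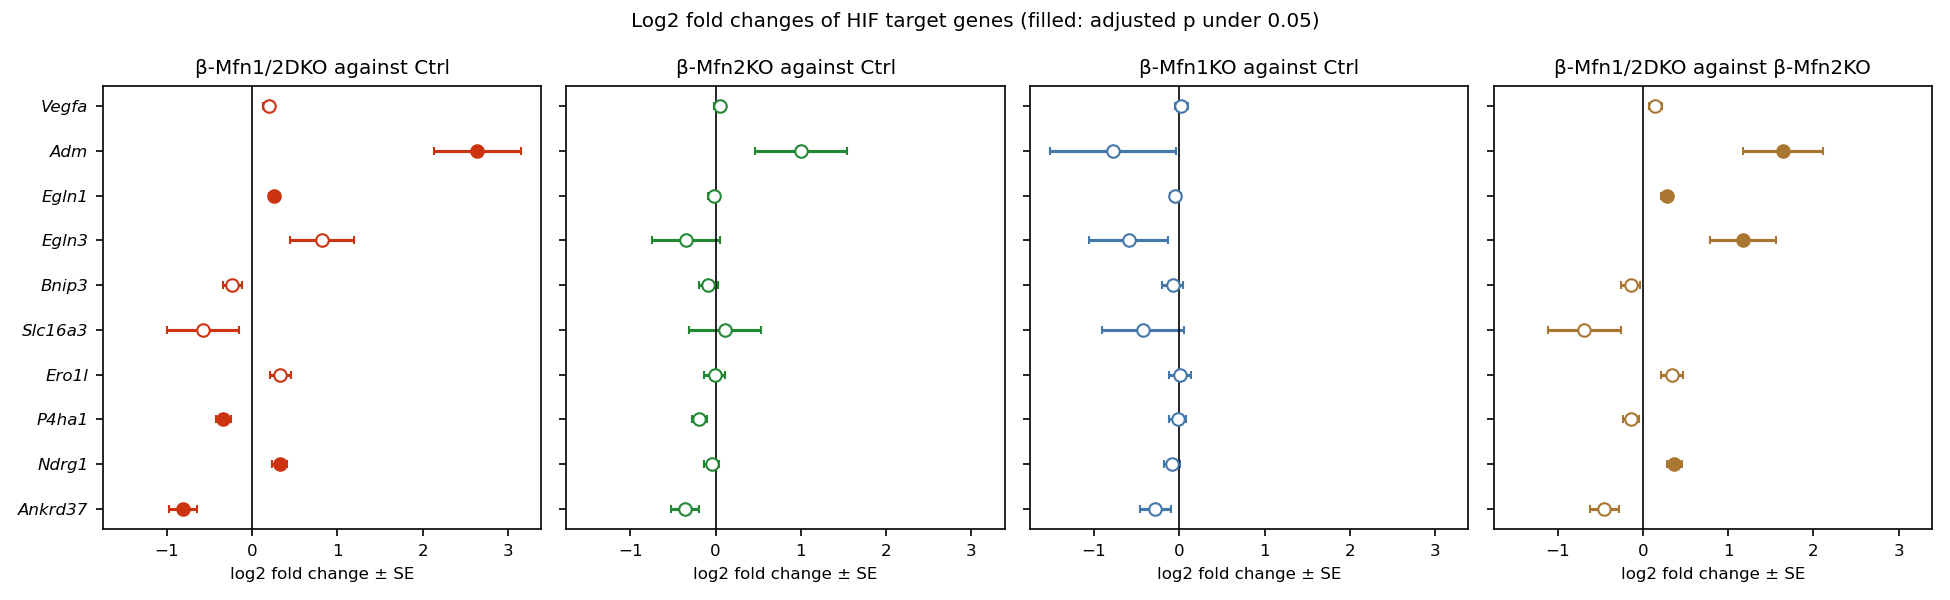
Log2 fold changes (horizontal axes, points with bars of 1 SE) of the 10 HIF target genes in 4 comparisons, filled where edgeR's adjusted p is under 0.05. Filled points number 5 in β-Mfn1/2DKO against Ctrl, 0 in each single knockout against Ctrl and 4 in β-Mfn1/2DKO against β-Mfn2KO.

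HIFs bind the letters ACGTG or GCGTG, read on either strand (CACGT or CACGC on the opposite one), so the 250 bases before each RefSeq start (GRCm38.p6) were searched for them. Of the 10 genes 9 had an entry, with 10 listed starts among them. At least 1 match was found at 9 of the 10 starts, against 38.6% of 32851 promoters, and ACGTG at 8 of the 10, against 16.6%. At least 3 matches were found at 4 of the 10, Bnip3 (5), Ankrd37 (4), Ero1l (3, Ero1a in RefSeq) and P4ha1 (3), against 6.58% of promoters. Vegfa had 2 listed starts: the stretch before the start at its annotated 5′ end (46032378 to 46032627) held 0 matches, and the one before a start inside the gene (46025164 to 46025413) held 2. Matches can overlap, as in CACGTG in Bnip3 and CACGCGTG in Ankrd37. A match is a stretch of letters and was not tested as a binding site. The 4 sequences shown are those of the genes that changed in β-Mfn1/2DKO and have an entry, 5′ to 3′ on the gene's strand with the matches in capitals: Adm at chr7:110627407-110627656 (plus strand), Egln1 at chr8:124949255-124949504 (minus), P4ha1 at chr10:59323046-59323295 (plus) and Ankrd37 at chr8:45999851-46000100 (minus).
Adm: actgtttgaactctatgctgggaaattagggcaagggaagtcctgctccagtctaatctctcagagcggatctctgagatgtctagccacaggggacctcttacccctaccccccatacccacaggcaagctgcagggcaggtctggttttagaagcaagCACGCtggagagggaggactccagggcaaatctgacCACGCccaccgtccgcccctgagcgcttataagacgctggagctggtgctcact
Egln1: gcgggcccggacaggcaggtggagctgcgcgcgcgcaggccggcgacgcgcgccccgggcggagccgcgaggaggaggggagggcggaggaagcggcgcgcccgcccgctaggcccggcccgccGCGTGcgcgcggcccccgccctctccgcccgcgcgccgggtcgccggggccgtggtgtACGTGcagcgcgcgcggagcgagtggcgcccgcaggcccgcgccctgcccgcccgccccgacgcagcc
P4ha1: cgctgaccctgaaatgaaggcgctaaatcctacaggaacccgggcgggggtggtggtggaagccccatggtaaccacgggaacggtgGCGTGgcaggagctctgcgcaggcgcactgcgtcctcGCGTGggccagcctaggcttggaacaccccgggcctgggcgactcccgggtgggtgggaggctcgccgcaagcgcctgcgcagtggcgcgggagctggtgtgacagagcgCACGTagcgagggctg
Ankrd37: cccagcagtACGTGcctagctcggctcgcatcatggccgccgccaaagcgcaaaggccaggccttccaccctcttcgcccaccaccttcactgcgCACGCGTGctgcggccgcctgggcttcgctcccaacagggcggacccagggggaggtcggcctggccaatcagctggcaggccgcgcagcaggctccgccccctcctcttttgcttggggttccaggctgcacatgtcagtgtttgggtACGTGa
Genes that rose and genes that fell both held matches. The 2 matches of Adm begin 90 and 54 bases before its start, and the last match of Ankrd37 begins 6 bases before its own. The RefSeq start of Ankrd37 lies inside the annotated gene, whose 5′ end is at 46005707, as do, nearer to their 5′ ends, those of Slc16a3, Ero1l, Egln1 and Bnip3.

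Among the secreted factors, Adm (ENSMUSG00000030790, chromosome 7, 110627661 to 110629820) encodes adrenomedullin, a peptide that widens vessels. Its normalized counts in Ctrl had a lowest value of 0, a median of 13.3 and a highest value of 37.4, from raw counts of 0 to 12. They were 5.58, 11.0, 9.93 and 8.32 in β-Mfn1KO and 2.82, 13.4, 29.6, 20.5 and 72.0 in β-Mfn2KO. In β-Mfn1/2DKO they were 69.5, 90.3, 85.4, 138.3 and 91.0, from raw counts of 146 to 353. All 5 β-Mfn1/2DKO libraries lay above all Ctrl and β-Mfn1KO libraries, and 4 of 5 lay above every β-Mfn2KO library. The 2 libraries high in leukocyte and stromal markers, Ctrl replicate 6 and β-Mfn2KO replicate 5, were also the highest of their groups for Adm. Leukocyte sums ran from 4928 to 28675 in Ctrl and from 4937 to 10400 in β-Mfn1/2DKO. Replicate 4 of β-Mfn1/2DKO held both the highest Adm value of all libraries and the highest leukocyte sum of its group. Replicate 5 held the lowest leukocyte sum of that group and its next highest Adm value. The log2 fold change in β-Mfn1/2DKO against Ctrl was 2.64 (SE 0.51), a 6.25-fold rise (edgeR's quasi-likelihood test, Benjamini-Hochberg adjusted p = 0.000825). With depth class, with β-Mfn1/2DKO and β-Mfn2KO replicates 4 and 5 as the deep libraries, as a covariate it was 1.05 and did not pass, and with counts thinned to the smallest total it was 2.54. The rise passed in 29 of 30 alternatives, among them without β-Mfn1/2DKO replicates 4 and 5 together, the libraries high in acinar markers. The depth-class fit rests on the 2 deep β-Mfn2KO libraries, so the part of depth cannot be told apart from that of genotype. The part of endothelial, acinar and leukocyte content in this rise was not tested.

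Vegfa (ENSMUSG00000023951, chromosome 17, 46016993 to 46032369) encodes the growth factor that endothelial cells respond to. In Ctrl it had a lowest value of 21741, a median of 22930 and a highest value of 25641 normalized counts. It stood at 24709.7, 24845, 23303 and 22689 in β-Mfn1KO and at 24442, 24729, 22459, 24885 and 24748 in β-Mfn2KO. In β-Mfn1/2DKO it stood at 28457, 29731, 28626.5, 24723 and 22772. Replicates 1 to 3 of β-Mfn1/2DKO were above every other library, while replicates 4 and 5, the libraries high in acinar markers, lay within the Ctrl range. The log2 fold change of 0.19 (SE 0.07) did not pass (edgeR's quasi-likelihood test, Benjamini-Hochberg adjusted p = 0.0547). It passed in 11 of 30 alternatives: at 0.32 without β-Mfn1/2DKO replicates 4 and 5 together, at 0.34 with total counts, with DESeq2 (0.16), with a filter on low counts (0.17), with sex as a covariate (0.20), and at 0.22 to 0.25 without Ctrl replicate 1, Ctrl replicate 5, β-Mfn2KO replicate 3, β-Mfn2KO replicate 5, β-Mfn1/2DKO replicate 4 or β-Mfn1/2DKO replicate 5.

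The oxygen sensors among the 10 are Egln1 and Egln3, prolyl hydroxylases that mark the HIF α subunit and are themselves HIF targets. Egln1 (ENSMUSG00000031987, chromosome 8, 124908587 to 124949324) had a lowest value of 2333, a median of 2585 and a highest value of 2755 normalized counts in Ctrl. It stood at 2468, 2488, 2188 and 2808 in β-Mfn1KO, at 2708, 2334, 2695, 2559 and 2333 in β-Mfn2KO and at 2943, 2939, 3072, 3277 and 3081 in β-Mfn1/2DKO. The 5 β-Mfn1/2DKO libraries were above all other 15 libraries. The rise against Ctrl was small in size, 0.25 on the log2 scale (SE 0.06) or 1.19-fold (edgeR's quasi-likelihood test, Benjamini-Hochberg adjusted p = 0.00436). It did not pass with depth class as a covariate, at 0.33.

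Egln3 (ENSMUSG00000035105, chromosome 12, 54178981 to 54203860) was among the least abundant, with a lowest value of 12.2, a median of 28.5 and a highest value of 84.6 normalized counts in Ctrl. It stood at 44.7, 22.0, 24.8 and 16.6 in β-Mfn1KO, at 22.6, 15.6, 40.4, 34.9 and 42.3 in β-Mfn2KO and at 84.2, 80.7, 50.8, 80.3 and 64.8 in β-Mfn1/2DKO. Ctrl replicates 1 and 2, at 69.8 and 84.6, reached the β-Mfn1/2DKO range, and the other 4 Ctrl libraries lay below it. The log2 fold change of 0.82 (SE 0.37) did not pass (edgeR's quasi-likelihood test, Benjamini-Hochberg adjusted p = 0.152), but without Ctrl replicate 2 it was 1.22 and passed, and with depth class as a covariate it was 0.25 and did not.

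Bnip3 (ENSMUSG00000078566, chromosome 7, 138890836 to 138909519) encodes a protein of the outer mitochondrial membrane that promotes the removal of mitochondria by autophagy. Its normalized counts had a lowest value of 2535, a median of 3242 and a highest value of 4634 in Ctrl, and ran from 2732 to 3598 in β-Mfn1KO, from 3029.8 to 3539 in β-Mfn2KO and from 2509 to 3227 in β-Mfn1/2DKO. The groups overlapped, with Ctrl replicates 1 and 2 the highest of all 20 libraries. Its log2 fold change in β-Mfn1/2DKO against Ctrl was −0.23 (SE 0.11) and did not pass (edgeR's quasi-likelihood test, Benjamini-Hochberg adjusted p = 0.188) there or in any of 30 alternatives.

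Slc16a3 (ENSMUSG00000025161, chromosome 11, 120948480 to 120960868) encodes the lactate transporter MCT4, which β cells normally hold at a low level. It had a lowest value of 45.6, a median of 98.9 and a highest value of 165.0 normalized counts in Ctrl. It stood at 75.4, 49.5, 86.9 and 85.9 in β-Mfn1KO, at 59.2, 40.2, 70.0, 53.1 and 295.9 in β-Mfn2KO and at 76.9, 66.4, 46.9, 76.4 and 68.5 in β-Mfn1/2DKO. The highest Ctrl and the highest β-Mfn2KO library were the pair with the highest leukocyte and stromal sums, and the part of those cells in the values was not tested. The log2 fold change in β-Mfn1/2DKO against Ctrl was −0.58 (SE 0.42; edgeR's quasi-likelihood test, Benjamini-Hochberg adjusted p = 0.428), and ran from −2.21 with depth class as a covariate to −0.37 over the alternatives without passing. Against β-Mfn2KO it was −0.69, and 0.30 without β-Mfn2KO replicate 5, neither passing.

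Ero1l (ENSMUSG00000021831, chromosome 14, 45283087 to 45318771) encodes an oxidase that renews disulfide-forming capacity in the endoplasmic reticulum. Normalized counts had a lowest value of 4239, a median of 4725 and a highest value of 7167 in Ctrl, and ran from 4469 to 6129.97 in β-Mfn1KO, from 4676 to 6439 in β-Mfn2KO and from 5746 to 7645 in β-Mfn1/2DKO. Ctrl replicates 1 and 2, at 7167 and 6648, lay within the β-Mfn1/2DKO range and the other 4 Ctrl libraries below it. The log2 fold change of 0.33 (SE 0.12) did not pass (edgeR's quasi-likelihood test, Benjamini-Hochberg adjusted p = 0.0704). It passed in 9 of 30 alternatives, among them without Ctrl replicate 1 (0.43), Ctrl replicate 2 (0.40), β-Mfn2KO replicate 3 (0.36), β-Mfn2KO replicate 5 (0.36) or β-Mfn1/2DKO replicate 5 (0.38), with total counts (0.48) and without β-Mfn1/2DKO replicates 4 and 5 together (0.44).

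P4ha1 (ENSMUSG00000019916, chromosome 10, 59323296 to 59373304) encodes the catalytic subunit of a collagen prolyl hydroxylase. It had a lowest value of 2347, a median of 2527 and a highest value of 3515 normalized counts in Ctrl. It stood at 3154, 2535, 2598 and 2717 in β-Mfn1KO, at 2299, 2432, 2533, 2511 and 2415 in β-Mfn2KO and at 2199, 2415, 2246, 2194 and 1979 in β-Mfn1/2DKO. All but replicate 2 of β-Mfn1/2DKO lay below every Ctrl library, and Ctrl replicates 1 and 2 (3515 and 3348.5) stood above the other Ctrl libraries. It fell by 0.34 on the log2 scale in β-Mfn1/2DKO against Ctrl (SE 0.09; edgeR's quasi-likelihood test, Benjamini-Hochberg adjusted p = 0.0120). It did not pass with total counts (−0.19), with depth class as a covariate (−0.36) or without β-Mfn1/2DKO replicates 4 and 5 together (−0.26).

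Of 7 related genes for collagen hydroxylation and disulfide formation, 5 fell in β-Mfn1/2DKO against Ctrl, with a median log2 fold change of −0.51. The 11 β-cell markers fell with them (median −1.02), and the part of β-cell content in these falls was not tested. The largest falls were in Ero1lb (−1.64), Pdia6 (−0.76) and Pdia4 (−0.63), and P4hb (−0.51) and Pdia3 (−0.38), named after their values were seen, made up the rest. With total counts 4 of the 7 fell. Ero1lb, the form of the oxidase that β cells express strongly, ran from 42288.5 to 76251 normalized counts in Ctrl and from 16433.6 to 24364 in β-Mfn1/2DKO, with no overlap.

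Ndrg1 (ENSMUSG00000005125, chromosome 15, 66929318 to 66969640) encodes a stress-responsive cytoplasmic protein. Normalized counts had a lowest value of 8440.0, a median of 9129 and a highest value of 9965 in Ctrl. They stood at 8785, 7586, 8742 and 9336 in β-Mfn1KO, at 8525, 9053, 8779, 9941 and 7877 in β-Mfn2KO and at 10526, 10316, 9618, 12034.5 and 14602.5 in β-Mfn1/2DKO. Replicate 3 of β-Mfn1/2DKO fell within the Ctrl range, and replicates 4 and 5 were the highest of all libraries. The rise against Ctrl was 0.32 on the log2 scale (SE 0.09; edgeR's quasi-likelihood test, Benjamini-Hochberg adjusted p = 0.0116). Without replicates 4 and 5 together, the libraries high in acinar and endothelial markers, it was 0.18 and did not pass, nor did it with depth class as a covariate (0.30).

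Ankrd37 (ENSMUSG00000050914, chromosome 8, 45996902 to 46005707) encodes a small protein of ankyrin repeats. It had a lowest value of 227.9, a median of 307.4 and a highest value of 348.9 normalized counts in Ctrl. It stood at 184.2, 261.2, 178.8 and 357.6 in β-Mfn1KO, at 180.5, 210.0, 239.6, 301.8 and 220.6 in β-Mfn2KO and at 157.4, 183.5, 174.6, 142.3 and 190.6 in β-Mfn1/2DKO. The 5 β-Mfn1/2DKO libraries lay below all Ctrl libraries, and the lowest libraries of each single knockout reached into their range. The fall of 0.81 on the log2 scale (SE 0.16; edgeR's quasi-likelihood test, Benjamini-Hochberg adjusted p = 0.00120) passed in all 30 alternatives. Ankrd37 shares 57 exonic bases with Ufsp2 and 349 with Lrp2bp, which lie on the opposite strand and were chosen after their values were seen. Whether the counting separated strands is not stated, so some of its counts may belong to them. Ufsp2, with a mean raw count of 2522 against 202.0 for Ankrd37, fell by 0.58 as well, and Lrp2bp, with a mean raw count of 39.1, stood at −0.51 without passing.

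The single knockouts ask what each mitofusin does alone. In β-Mfn2KO against Ctrl, 0 of the 10 passed by edgeR, beside 0.0559% of all genes, and 0 by DESeq2, beside 21 of all 28632 genes. At an unadjusted p under 0.05 by edgeR stood 2 of 10, P4ha1 and Ankrd37, beside 1208 of all genes. The lowest Benjamini-Hochberg adjusted p in edgeR's quasi-likelihood test was 0.925, log2 fold changes ran from −0.36 in Ankrd37 to 1.0 in Adm (SE 0.55), and the median was −0.04 beside 0.02 over all genes. In β-Mfn1KO against Ctrl, 0 of the 10 passed by edgeR, beside 0.0279% of all genes, 0 by DESeq2, beside 24 genes, and 0 at an unadjusted p under 0.05 by edgeR, beside 2130 genes. Log2 fold changes ran from −0.78 in Adm (SE 0.74) to 0.02 in Vegfa, with a median of −0.08 beside 0.00 over all genes and a lowest adjusted p of 0.737 (edgeR's quasi-likelihood test, Benjamini-Hochberg). The wide errors of Adm come with its raw counts of 0 to 12 in Ctrl and 2 to 4 in β-Mfn1KO, which set what these libraries can detect. All 3 comparisons use the same Ctrl libraries.

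Adding the loss of Mfn1 to that of Mfn2 was compared with β-Mfn2KO as the reference. The fit was that of all groups, so Ctrl and β-Mfn1KO libraries shared in its scaling and its estimate of spread. In β-Mfn1/2DKO against β-Mfn2KO, 4 of the 10 rose and 0 fell by edgeR, where 13% of all genes changed, 7.09% rising and 5.90% falling. DESeq2 called 5 of 10, beside 5063 of all 28632 genes, and 6 had an unadjusted p under 0.05 by edgeR, beside 7387 of all genes. Egln1 rose by 0.28 (SE 0.06; edgeR's quasi-likelihood test, Benjamini-Hochberg adjusted p = 0.00379), with all 5 β-Mfn1/2DKO libraries above all β-Mfn2KO libraries, and passed in all 31 alternatives. Ndrg1 rose by 0.37 (SE 0.09; edgeR's quasi-likelihood test, Benjamini-Hochberg adjusted p = 0.00798), with 4 of 5 libraries above every β-Mfn2KO library, and did not pass with depth class as a covariate (0.36) or without β-Mfn1/2DKO replicates 4 and 5 together (0.22). Adm rose by 1.64 (SE 0.47; edgeR's quasi-likelihood test, Benjamini-Hochberg adjusted p = 0.0229), and did not pass without β-Mfn2KO replicate 2 (1.48), β-Mfn2KO replicate 4 (1.51), β-Mfn1/2DKO replicate 4 (1.48) or β-Mfn1/2DKO replicates 4 and 5 together (1.43), or with depth class as a covariate (1.03). Without β-Mfn2KO replicate 5 it was 2.48. Egln3 rose by 1.17 (SE 0.39; edgeR's quasi-likelihood test, Benjamini-Hochberg adjusted p = 0.0482), with no overlap of the libraries. It did not pass in 18 of 31 alternatives, 12 of them leaving out 1 library (Ctrl 5, β-Mfn1KO 2, 3 or 4, β-Mfn2KO 1, 2, 3 or 4, or β-Mfn1/2DKO 1, 2, 4 or 5) at 1.02 to 1.27. The deep β-Mfn2KO replicates 4 and 5 bring the depths closest: against these alone, Egln1 passed at 0.34, while Ndrg1 (0.38), Adm (1.05) and Egln3 (0.92) did not. Of the genes called against Ctrl, P4ha1 stood at −0.14 and Ankrd37 at −0.45 here without passing, though Ankrd37 passed without β-Mfn1KO replicate 4 (−0.45), with DESeq2 (−0.48) and with a filter on low counts (−0.47). Ero1l (0.34) passed in 5 of 31 alternatives, among them without Ctrl replicate 1 (0.34), without β-Mfn2KO replicate 3 (0.44), with total counts (0.45) and with these 2 groups only (0.35). Vegfa (0.15) passed without β-Mfn1/2DKO replicates 4 and 5 together (0.27) and with total counts (0.26).

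Whether losing Mfn1 had another effect without Mfn2 than with it was tested as an interaction, the log2 change from β-Mfn2KO to β-Mfn1/2DKO minus that from Ctrl to β-Mfn1KO. Egln1 (0.32, SE 0.09; edgeR's quasi-likelihood test, Benjamini-Hochberg adjusted p = 0.0342) and Ndrg1 (0.45, SE 0.13; edgeR's quasi-likelihood test, Benjamini-Hochberg adjusted p = 0.0420) passed, 2 of 10 beside 5.92% of all genes. DESeq2 called 4 of 10, beside 2851 of all 28632 genes, and 4 had an unadjusted p under 0.05 by edgeR, beside 5286 of all genes. Adm (2.42, SE 0.87) and Egln3 (1.76, SE 0.60) had larger differences that did not pass. Both calls were close to the threshold: the count was 0 without Ctrl 5, Ctrl 6, β-Mfn1KO 1, 2 or 3, β-Mfn2KO 2 or β-Mfn1/2DKO 5, and 1 without Ctrl 2, β-Mfn2KO 1 or β-Mfn1/2DKO 4. It was also 0 with depth class as a covariate and without β-Mfn1/2DKO 4 and 5 together, where the count over all genes went from 1694 to 911 and 1166. With replicate number as a block it was 0 (1457), and with DESeq2 size factors (1745) or thinned counts (1497) it was 1.

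**Figure D4:**
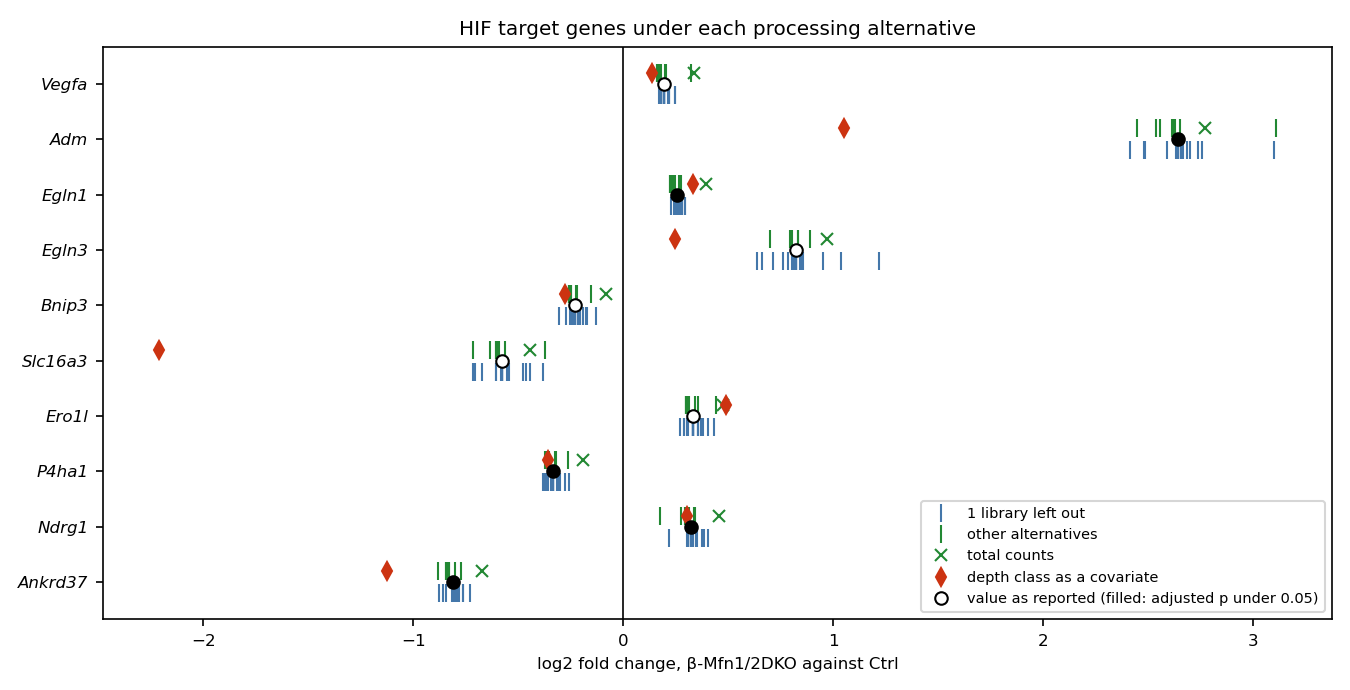
Log2 fold changes of the 10 HIF target genes in β-Mfn1/2DKO against Ctrl (horizontal axis) as reported (circles, filled where edgeR's adjusted p is under 0.05) and under each alternative (other marks). No value crosses 0, Adm runs from 1.05 with depth class as a covariate to 3.11, and the marks of Ankrd37 run from −1.12 to −0.67.

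The rest of the pathway was read from lists of genes. Of 17 genes for HIF subunits and oxygen sensing, 4 rose and 1 fell in β-Mfn1/2DKO against Ctrl, with a median log2 fold change of −0.01 beside 0.06 over all genes, and with total counts 7 rose and 0 fell. Hif1a, the widely expressed α subunit, ran from 3159 to 3557 normalized counts in Ctrl and from 3114 to 3465 in β-Mfn1/2DKO (log2 fold change −0.02; edgeR's quasi-likelihood test, Benjamini-Hochberg adjusted p = 0.759). Its partner Arnt (−0.04), the recognition protein Vhl (0.14), the hydroxylase Egln2 (0.03) and the asparaginyl hydroxylase Hif1an (−0.01) did not pass either. Epas1, the α subunit HIF-2α that endothelial cells express strongly, rose by 0.40 (edgeR's quasi-likelihood test, Benjamini-Hochberg adjusted p = 0.0348), along with the endothelial markers given above, and their part in its rise was not tested. Arnt2 (0.71) and Siah1a (0.36), which acts on Egln3 protein, rose, as did Cul2 (0.31), named after its values were seen, and Cited2, which competes with HIFs for a coactivator, fell (−0.27). HIF activity itself lies in protein levels that RNA counts do not measure.

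Glycolytic HIF targets split in direction. Of 19, 4 rose and 4 fell, with a median of −0.11, while with total counts 5 rose and 1 fell, so their balance turns with the scaling. Hk1 (0.46), Slc2a3 (0.44) and Pfkfb3 (0.37) rose, and Pgk1 (−0.47), Pfkl (−0.38) and Aldoa (−0.33) fell. Pgk1, an often used HIF readout, ran from 6169.8 to 10438 normalized counts in Ctrl and from 5199 to 6147 in β-Mfn1/2DKO, where all 5 libraries lay below all Ctrl libraries. Ctrl replicates 1 and 2 stood apart at 10438 and 10401, against 6169.8 to 6900.02 in the other 4, and their part in the fold change was not tested. Of 25 other HIF targets measured among 26 listed, 6 rose and 4 fell, with a median of 0.08. Edn1 (1.03) and Bhlhe40 (0.55) were among those that rose, and Tfrc (−1.11), Loxl2 (−0.84) and Kdm3a (−0.30) fell. Tfrc, the transferrin receptor, ran from 4920.2 to 5822 in Ctrl and from 2131 to 2579.99 in β-Mfn1/2DKO.

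Partners and relatives of the 10 were read as well. Of 9 genes of the VEGF family and its receptors 3 rose, Flt1 (0.59), Nrp1 (0.52) and Kdr (0.51), of which Flt1 and Kdr are also endothelial markers, with a median of 0.22. Of 5 genes for adrenomedullin receptors and relatives 1 rose, Adm2 (1.15), from 188.4 to 549.5 normalized counts in Ctrl to 663.6 to 803.0 in β-Mfn1/2DKO, or 2 with total counts. Of 8 relatives of Ndrg1, Bnip3 and Slc16a3 1 rose, the lactate and pyruvate transporter Slc16a1 (1.05), whose counts were low (35.1 to 68.5 in Ctrl, 55.0 to 154.5 in β-Mfn1/2DKO). Of 14 genes of the integrated stress response, which can follow mitochondrial damage and shares targets with HIFs such as Vegfa, 5 rose and 1 fell, with a median of 0.10. Ddit3 (1.95), Trib3 (1.94) and Sesn2 (0.86) rose without overlap of the groups, and Shmt2 fell (−0.43). The medians of these 8 lists ran from −0.12 to 0.06 in β-Mfn2KO against Ctrl and from −0.27 to 0.23 in β-Mfn1KO against Ctrl.

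**Figure D5:**
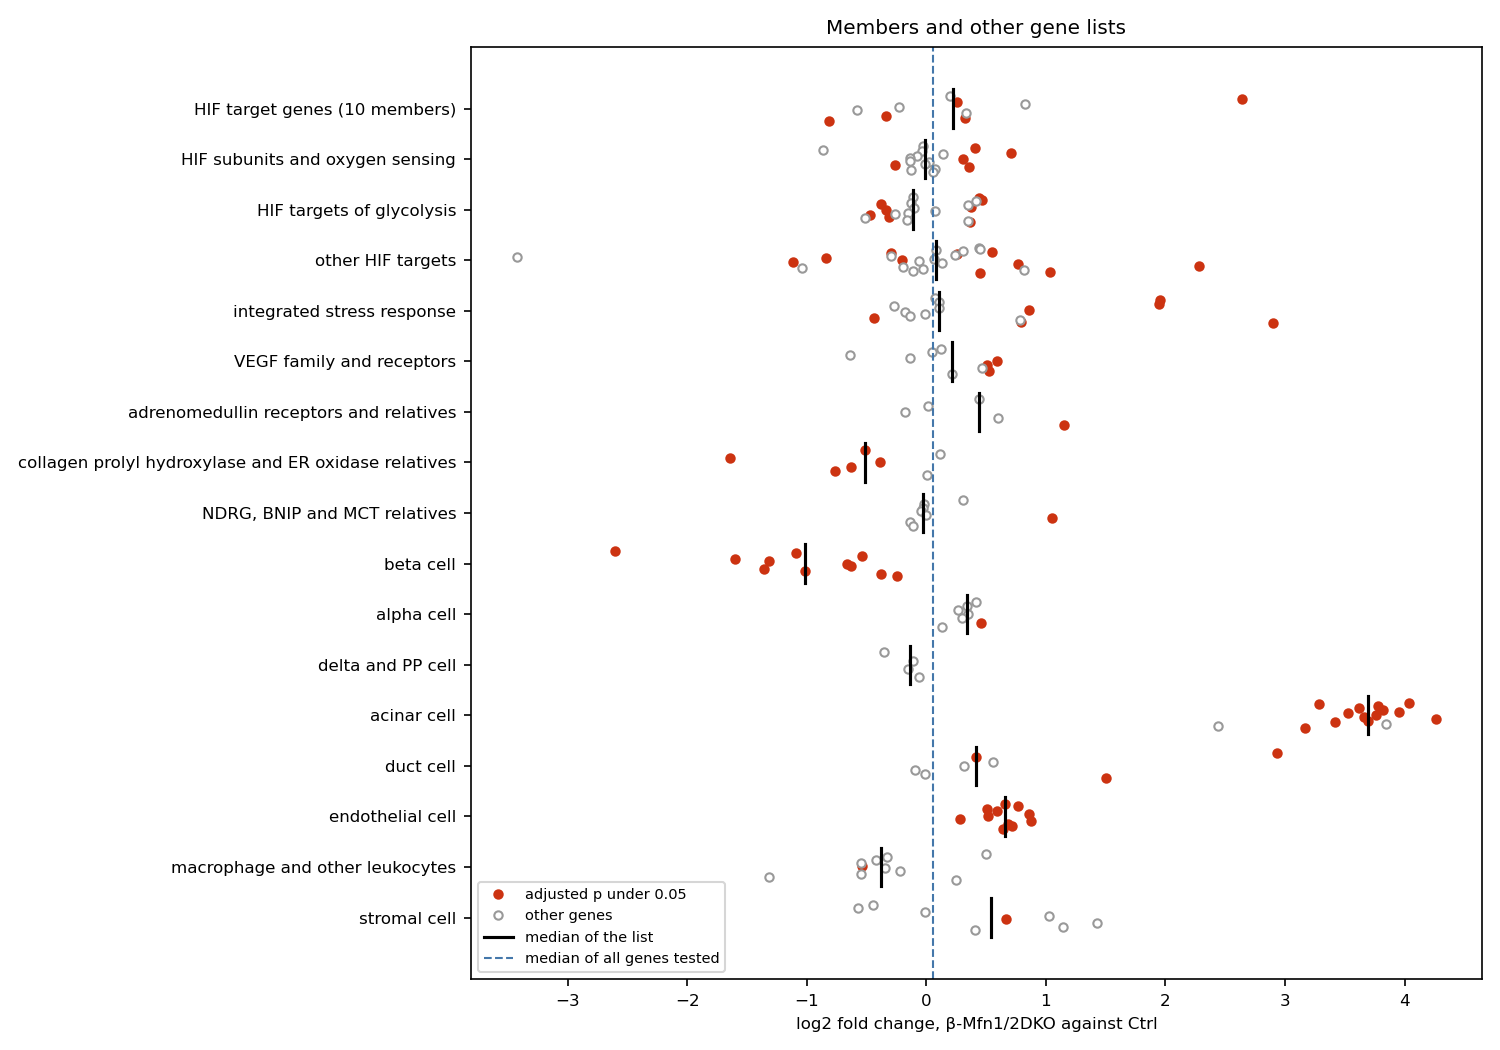
Log2 fold changes in β-Mfn1/2DKO against Ctrl (horizontal axis) of the genes of each list (points, filled where edgeR's adjusted p is under 0.05), with each list's median (bar) and the median of all genes tested (dashed line, 0.06). The HIF target genes and glycolytic targets lie on both sides of 0, all 11 β-cell markers lie below it and all 11 endothelial markers above.

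The genes most like Adm, the gene with the lowest p of the 10, were found by Pearson's r between log2 normalized counts over the 20 libraries, among 12274 genes with a mean of at least 100. They were Nmrk1 (r = 0.963), Greb1l (0.947), Brca2 (0.929), Gsto1 (0.905) and Kdelc1 (0.894). Greb1l had a highest Ctrl value of 127.6 and a lowest β-Mfn1/2DKO value of 218.6 normalized counts, and Gsto1 1086 and 1383. The 20 points share depth and genotype, so these values describe the libraries and are no test.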

How the data were processed

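Counts came from RNA of 20 islet libraries (6 Ctrl, 4 β-Mfn1KO, 5 β-Mfn2KO, 5 β-Mfn1/2DKO), grouped by the genotype in the labels. The authors trimmed reads with cutadapt 2.3, checked them with FastQC 0.11.8, aligned them to GRCm38 with STAR 2.6.1b and counted with RSEM 1.3.1, and the deposited table holds RSEM expected counts as whole numbers. Whether counting separated strands is not stated. All sample columns were used (0 left out).

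Counts were fitted with edgeR 4.0.16 in R 4.3.3 (TMM scaling, quasi-likelihood test, 6.24 prior degrees of freedom, no filter) over 28632 genes, and a gene was called changed at a Benjamini-Hochberg adjusted p under 0.05. The SE is the log2 fold change over the root of its F. Comparisons were β-Mfn1/2DKO against Ctrl and against β-Mfn2KO, each single knockout against Ctrl, and the interaction. The procedure was tested on simulated data. Library totals lay between 12400687 and 122947313, and the low counts of Adm, Egln3 and Slc16a3 in shallow libraries limit their precision.

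Alternatives were DESeq2 1.42.0, its size factors, total counts, a filter on low counts (filterByExpr, 15267 genes), 2 groups only, sex, replicate number or depth class as a covariate, counts thinned to the smallest total (seed 20), and leaving out libraries. Positions and exon lengths came from GENCODE mouse release 21. Tables and plots used Python 3.11.15, pandas 2.3.3, NumPy 2.4.6 and Matplotlib 3.10.9.

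The gene lists, like the 10 genes, were chosen with earlier results of these data known. Named genes are the 10, Mfn1, Mfn2, Hif1a, Epas1, Arnt, Vhl, Egln2 and Hif1an, up to 3 genes per list and direction with the largest called change in β-Mfn1/2DKO against Ctrl at a mean of 50 normalized counts or more, the most abundant marker of each cell type per kilobase, and the 5 genes most correlated with the member of lowest p at a mean of 100 or more. Any other gene is said to be chosen after its values were seen.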

Additional observations from a re-analysis of the deposited data

Results flagged for a closer look

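In 2 of 40 sets of a gene and a group, 1 library lay far from the others of its group, and chance flags about 1 in 20 groups. Vegfa stood at 22460 normalized counts in β-Mfn2KO replicate 3, against 24442 to 24885 in the other 4 libraries. Slc16a3 stood at 295.9 normalized counts in β-Mfn2KO replicate 5, from 448 raw counts, against 40.2 to 70.0 in the others. That library also held the highest leukocyte and stromal marker sums, and their part in the value was not tested.

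The effect of losing Mfn1 differed between islets without and with Mfn2 in 2 genes, by the interaction test. The difference on the log2 scale was 0.3244 for Egln1 and 0.4528 for Ndrg1. Both calls depended on single libraries and were absent with depth class as a covariate.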

How the results depend on the processing

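Of the 10 genes, each had the same direction in β-Mfn1/2DKO against Ctrl under 30 alternatives. The count of 5 changed genes was 1 (Ankrd37) with depth class as a covariate, where the count over all genes went from 4710 to 728. With counts thinned to the smallest total the count was 5, beside 3899 of all genes. It was 2 with a fold over 1.5 required, and 5 to 7 without single libraries. The depth-class fit rests on the 2 deep β-Mfn2KO libraries. There Adm (1.05, from 2.64), Egln1 (0.33, from 0.25), P4ha1 (−0.36, from −0.34) and Ndrg1 (0.30, from 0.32) did not pass. Vegfa passed in 11 and Ero1l in 9 of the 30.

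In β-Mfn1/2DKO against β-Mfn2KO the count of 4, beside 3719 of all genes, was 1 with depth class as a covariate (1683), 2 without β-Mfn1/2DKO replicates 4 and 5 (2484), 1 against β-Mfn2KO libraries of like depth (1592), 6 with total counts (4714), 2 with a fold over 1.5 required, and 2 to 5 without single libraries. Slc16a3 reversed, from −0.69 to 0.30 without β-Mfn2KO replicate 5, with a range of −0.88 to 0.30 without single libraries. The cause was not tested.

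The interaction count of 2, beside 1694 of all genes, was 4 with DESeq2 (2851), 1 with DESeq2 size factors (1745), 1 with thinned counts (1497), 0 with depth class as a covariate (911), 0 without β-Mfn1/2DKO replicates 4 and 5 (1166), 0 with a fold over 1.5 required, and 0 to 2 without single libraries. With replicate number as a block it was 0 (1457). The 27 same-numbered pairs had a mean correlation of 0.246 (lowest −0.102, 21 over 0.1), against −0.0544 in other pairs, and 10 of 19 libraries correlated best with their own number. The cause was not tested.

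Each single knockout against Ctrl kept its edgeR count of 0 under every alternative. Over all genes, 2745 rose and 1965 fell in β-Mfn1/2DKO against Ctrl, or 5393 and 949 with total counts. With DESeq2 size factors 2291 rose and 2378 fell, and with thinned counts 1900 and 1999, so the balance turns with the processing. Acinar markers went from 13 to 1 with the block.

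Depth limits what can be said. All 5 β-Mfn1/2DKO libraries are deep and all Ctrl libraries shallow, so a depth term rests on the 2 deep β-Mfn2KO libraries, and low counts of Adm in Ctrl leave its fold change imprecise. Bulk RNA does not separate cell types, and HIF protein was not measured in these libraries.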

Other observations

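Ctrl replicates 1 and 2 held the 2 highest Ctrl values in 4 of the 10 genes (Egln3, Bnip3, Ero1l and P4ha1), in 13 of 19 glycolytic HIF targets (68.4%) and in 10 of 14 genes of the integrated stress response (71.4%), against 15.4% of 14345 genes whose mean reached 30 normalized counts. The same held for 1 of 17 genes of HIF subunits and oxygen sensing and 3 of 25 other HIF targets. Ak4, chosen after its values were seen, stood at 232.6 and 224.2 normalized counts in these 2 libraries and at 17.5 to 65.4 in the other Ctrl libraries. Pgk1 stood at 10438 and 10401, against 6169.8 to 6900.02. The pair of libraries was picked after its values were seen, so these shares describe the libraries and are no test. What sets these libraries apart is not in the labels.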
